A study of Homo sapiens with 4 samples.

Results

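The pregnancy-specific glycoprotein (PSG) genes and the chorionic gonadotropin beta (CGB) genes are placental genes that were read in 2 human thyroid cancer cell lines. The 10 members are the 8 genes PSG1, PSG2, PSG3, PSG4, PSG5, PSG6, PSG9 and PSG11 and the 2 genes CGB5 and CGB8, out of 58884 genes in the table. They were chosen by name with levels and ratios of these same 4 libraries in view, so every value below is a description and no test was made. All 10 symbols matched 1 Ensembl identifier each. The lines were FTC-133, from a follicular thyroid carcinoma, and 8505C, from an anaplastic thyroid carcinoma. Each line was transfected with an empty vector or with a vector that overexpresses CRABP1, a cytoplasmic carrier of retinoic acid. Each of the 4 groups held 1 library, so there is no replicate error, and a difference between libraries cannot be told apart from the spread between cultures. The labels state neither the promoter of the vector nor whether a transfected line was 1 clone.

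Values are TPM, a read count taken per base of transcript and brought to one total in every library, so levels of different genes can be compared. About 19174557 to 20331464 reads per library lay behind them, recovered from the steps between low TPM values. CRABP1 was listed at 0 in both vector libraries and with the CRABP1 vector reached 385 TPM (FTC-133) and 537 TPM (8505C). Mitochondrially encoded genes held 25.9% to 28.6% of the TPM. Of the thyroid markers, PAX8 (100 TPM), NKX2-1 (44.7 TPM), HHEX (8.45 TPM) and FOXE1 (8.06 TPM) were present in FTC-133 with vector. In 8505C with vector, NKX2-1 (118 TPM) and HHEX (22.4 TPM) were higher, whereas PAX8 was at 0.240 TPM and FOXE1 at 0.0568 TPM. With CRABP1, NKX2-1 was at 17.7 TPM in FTC-133, past 2-fold lower, and at 113 TPM in 8505C. It was the 1 lower of 5 thyroid markers that averaged 1 TPM or more in FTC-133. The other 4 were higher there with CRABP1, 0 of them past 2-fold, with PAX8 at 143 TPM and FOXE1 at 15.2 TPM. Thyroglobulin TG was at most 0.681 TPM, and the iodide transporter SLC5A5 was at 0 in all 4 libraries.

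PSGs are secreted glycoproteins of the carcinoembryonic antigen (CEACAM) family, built from immunoglobulin-like domains and released in large amounts by the syncytiotrophoblast, the fused outer layer of the placenta. They bind integrins and cell surface proteoglycans and can activate latent transforming growth factor beta. CGB genes encode the beta subunit of human chorionic gonadotropin (hCG), which pairs with the alpha subunit CGA, acts on the receptor LHCGR and can weakly stimulate the thyrotropin receptor TSHR. Some tumours outside the placenta make free hCG beta subunit.

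The members are near copies of each other, which sets how far a read can be placed. Both families lie on chromosome 19 (GRCh38). With GENCODE 29 coordinates, PSG1 (ENSG00000231924) spans 42866464 to 42879822, PSG6 (ENSG00000170848) 42902079 to 42919563, PSG5 (ENSG00000204941) 43166256 to 43186536 and PSG9 (ENSG00000183668) 43211791 to 43269530, all on the minus strand. CGB5 (ENSG00000189052) spans 49043884 to 49045311 on the plus strand, and CGB8 (ENSG00000213030) 49047638 to 49049106 on the minus strand. The first 90 coding bases of the 4 PSG genes with the highest summed levels are shown to let their likeness be seen. Bases that differ from PSG1 are in capitals, and positions count from 1 at the start codon.
PSG1: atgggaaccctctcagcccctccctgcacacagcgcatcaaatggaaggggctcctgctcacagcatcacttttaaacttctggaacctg
PSG5: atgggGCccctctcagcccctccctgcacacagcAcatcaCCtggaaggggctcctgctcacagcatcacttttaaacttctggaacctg
PSG6: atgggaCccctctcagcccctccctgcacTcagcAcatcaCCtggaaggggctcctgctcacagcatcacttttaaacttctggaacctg
PSG9: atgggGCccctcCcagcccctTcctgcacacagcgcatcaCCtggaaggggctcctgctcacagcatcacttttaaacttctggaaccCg

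PSG5 and PSG6 each differed from PSG1 at 5 of these 90 bases, and PSG9 at 7. The substitutions A7C, A41C and A42C were shared by PSG5, PSG6 and PSG9, and G35A by PSG5 and PSG6. Over the longest annotated coding sequences, the 28 pairs of PSG members were 90.4% to 94.8% identical with a median of 93.3%. PSG5 and PSG6 were no closer than that median, at 93.3% over 1267 aligned bases, and PSG1 was 93.3% identical to PSG5 and 92.7% to PSG6.

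The same stretch of CGB5, CGB8 and CGB7, an hCG beta gene outside the 10, shows how much closer that family is. Bases that differ from CGB5 are in capitals.
CGB5: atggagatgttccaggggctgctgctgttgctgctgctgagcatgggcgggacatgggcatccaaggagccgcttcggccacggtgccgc
CGB8: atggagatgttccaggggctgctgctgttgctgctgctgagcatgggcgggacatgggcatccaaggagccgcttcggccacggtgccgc
CGB7: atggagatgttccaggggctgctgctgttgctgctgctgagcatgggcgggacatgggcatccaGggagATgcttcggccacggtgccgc

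CGB5 and CGB8 were identical over all 495 coding bases. CGB3 differed from them at 1 base and CGB7 at 5, of which A65G, C70A and C71T fall in the stretch above. Cut into stretches of 50 bases, 86.0% of the annotated CGB5 transcript sequence and 82.8% of that of CGB8 also occurred in another annotated gene, and 71.4% and 64.2% did in stretches of 100 bases. For the PSG members these shares were 15.5% to 34.6% at 50 bases and 2.43% to 15.3% at 100 bases. The read length is not given in the sources used here, nor is the handling of reads that match several places, so how CGB reads were divided among CGB3, CGB5 and CGB8 is uncertain, and the split among PSG genes less so.

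**Figure D1:**
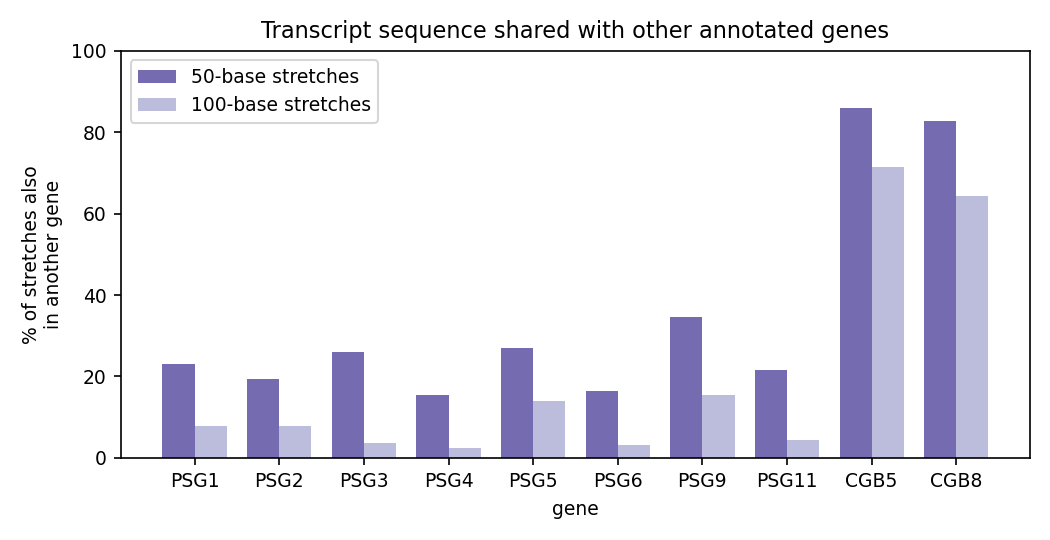
Share of each gene's transcript stretches (y axis, percent) that also occur in another annotated gene, for stretches of 50 and 100 bases; 1 bar per gene and length. CGB5 and CGB8 stand at 64.2% to 86.0%, and the 8 PSG genes at 2.43% to 34.6%.

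RefSeq (GRCh38.p14) gave a promoter sequence for 5 of the 10 members: PSG3, PSG4, PSG5, CGB5 and CGB8. The 120 bases before the annotated start are shown for CGB5 (chr19:49043728-49043847, plus strand) and CGB8 (chr19:49049112-49049231, minus strand), since these were the members with the lowest ratios in FTC-133, and for PSG5 (chr19:43186537-43186656, minus strand). Capitals mark bases that differ between CGB5 and CGB8. Their starts are offset, so the CGB8 stretch begins 10 aligned bases earlier.
CGB5: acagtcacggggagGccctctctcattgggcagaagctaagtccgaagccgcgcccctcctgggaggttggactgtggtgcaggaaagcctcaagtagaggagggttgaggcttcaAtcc
CGB8: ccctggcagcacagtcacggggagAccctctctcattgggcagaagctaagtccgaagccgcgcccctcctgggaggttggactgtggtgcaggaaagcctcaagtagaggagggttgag
PSG5: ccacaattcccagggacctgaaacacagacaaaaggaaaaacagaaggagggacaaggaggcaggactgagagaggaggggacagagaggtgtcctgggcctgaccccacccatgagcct

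Over the full window of 300 bases (250 before and 50 after the start), CGB5 and CGB8 were identical at 280 of 289 aligned bases (96.9%), and the PSG3, PSG4 and PSG5 promoters were 94.2% to 96.5% identical in pairs. On either strand, 0 of the 5 windows held AGGTCA, a core element of retinoid and other nuclear receptor sites, which 13.8% of 35116 promoters of this length held. The windows also held neither TATAAA (11.5% of all promoters) nor GCCNNNGGC, a TFAP2 motif that reads alike on both strands (23.2%). This says only that these letters are not in these windows.

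PSG1 was the most abundant member in every library. It was at 31.2 TPM in FTC-133 with vector, 19.9 TPM in FTC-133 with CRABP1, 113 TPM in 8505C with vector and 117 TPM in 8505C with CRABP1, from 842, 521, 2843 and 2948 reads. Both 8505C libraries lay above both FTC-133 libraries, and PSG1 ranked 1190 and 1165 among all genes there, against 5026 and 7206 in FTC-133. In FTC-133 the TPM was 1.57-fold lower with CRABP1 (95% Clopper-Pearson interval of the ratio of both libraries 1.40 to 1.75). In 8505C the ratio was 1.04 (0.988 to 1.10), an interval that holds equal levels. All such intervals, given below in parentheses, cover counting error only.

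PSG5 and PSG6 went opposite ways in the lines. PSG5 was at 4.59 TPM and 2.11 TPM in FTC-133 with vector and with CRABP1, from 117 and 52 reads, and at 11.9 TPM and 24.95 TPM in 8505C, from 284 and 592 reads. With CRABP1, PSG5 in FTC-133 was thus 2.18-fold lower (1.56 to 3.08). In 8505C it was 2.09-fold higher (1.81 to 2.42). The 4 libraries were ordered alike for both genes, with 8505C with CRABP1 highest and FTC-133 with CRABP1 lowest. PSG6 was at 3.90 and 1.88 TPM in FTC-133, from 109 and 51 reads, and at 14.5 and 27.9 TPM in 8505C, from 379 and 727 reads. With CRABP1, PSG6 in FTC-133 was 2.07-fold lower (1.47 to 2.95). In 8505C it was 1.92-fold higher (1.70 to 2.18). Whether these effects differ between the lines beyond replicate error was not tested, since each line had 1 library per group. The antisense RNA PSG11-AS1 shares 517 exon bases with PSG5, the strand setting is not given in the sources used here, and that RNA was at 153 and 177 reads in 8505C.

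PSG9 was higher in FTC-133. It was at 8.41 and 6.08 TPM in FTC-133 with vector and with CRABP1, from 231 and 162 reads, and at 0.195 and 0.547 TPM in 8505C, from 5 and 14 reads. Both FTC-133 libraries lay far above both 8505C libraries, the reverse of PSG1, PSG5 and PSG6. In the vector libraries the level was 43.2-fold lower in 8505C (18.2 to 134). In FTC-133 with CRABP1 it was 1.38-fold lower (1.13 to 1.70), and in 8505C the ratio was 2.81 (0.956 to 9.96). PSG9 shares 685 exon bases with the pseudogene CEACAMP10 on the same strand, which had 10 and 38 reads in FTC-133 with vector and CRABP1.

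**Figure D2:**
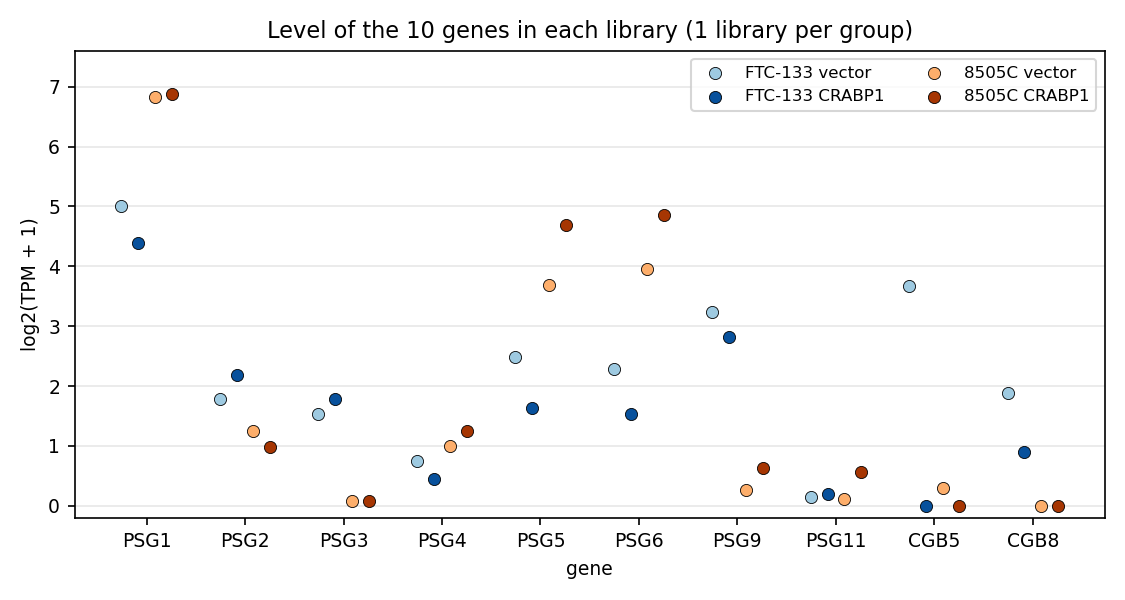
Level of each of the 10 genes, as log2(TPM + 1) on the y axis, with 1 point per library coloured by line and vector. PSG1, PSG5 and PSG6 are higher in both 8505C libraries than in both FTC-133 libraries, and PSG2, PSG3 and PSG9 are lower; CGB5 lies above 1 TPM in FTC-133 with vector alone.

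The remaining PSG members were low. PSG2 was at 2.46, 3.55, 1.39 and 0.974 TPM in FTC-133 with vector, FTC-133 with CRABP1, 8505C with vector and 8505C with CRABP1, and both within-line intervals held a ratio of 1 (0.931 to 2.24 and 0.328 to 1.46). PSG3 was at 1.89 and 2.45 TPM in FTC-133 and had 1 read in each 8505C library, below the level of 3 reads used as a floor. The PSG3 ratio in FTC-133 was 1.30 (0.813 to 2.08), so no difference was detectable at this depth. PSG4 was at 0.673 and 0.362 TPM in FTC-133 and at 1.003 and 1.38 TPM in 8505C, with intervals of 0.244 to 1.13 in FTC-133 and 0.855 to 2.25 in 8505C. PSG11 had 3 and 4 reads in FTC-133 and 2 and 12 reads in 8505C, where its ratio was 6.02 (1.34 to 55.4). Its highest level was 0.474 TPM.

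Summed over the 8 PSG members, the level was 53.2 TPM in FTC-133 with vector and 36.5 TPM with CRABP1, 1.46-fold lower. In 8505C it was 142 and 173 TPM, 1.22-fold higher. On summed reads scaled to depth, the PSG level with CRABP1 was 1.55-fold lower (1.43 to 1.69) for FTC-133. For 8505C it was 1.21 times the vector value (1.16 to 1.27). In the vector libraries the 8505C sum was 2.67 times that of FTC-133, and in the CRABP1 libraries 4.75 times. In these bulk RNA samples, fewer cells with a transcript and less of it per cell cannot be told apart.

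The makeup of the PSG sum differed between libraries. PSG1 made up 58.6% and 54.5% of it in FTC-133 with vector and CRABP1, and 79.4% and 67.6% in 8505C. PSG5 and PSG6 together held 16.0% with vector and 10.9% with CRABP1 in FTC-133, and 18.6% and 30.5% in 8505C. Of the 31.6 TPM by which the 8505C sum was higher with CRABP1, these 2 genes accounted for 26.4 TPM (83.5%) and PSG1 for 4.52 TPM (14.3%). In FTC-133 PSG1 accounted for most of the lower sum, at 67.4% of it. PSG9 was 15.8% and 16.7% of the sum in FTC-133 and at most 0.315% in 8505C.

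**Figure D3:**
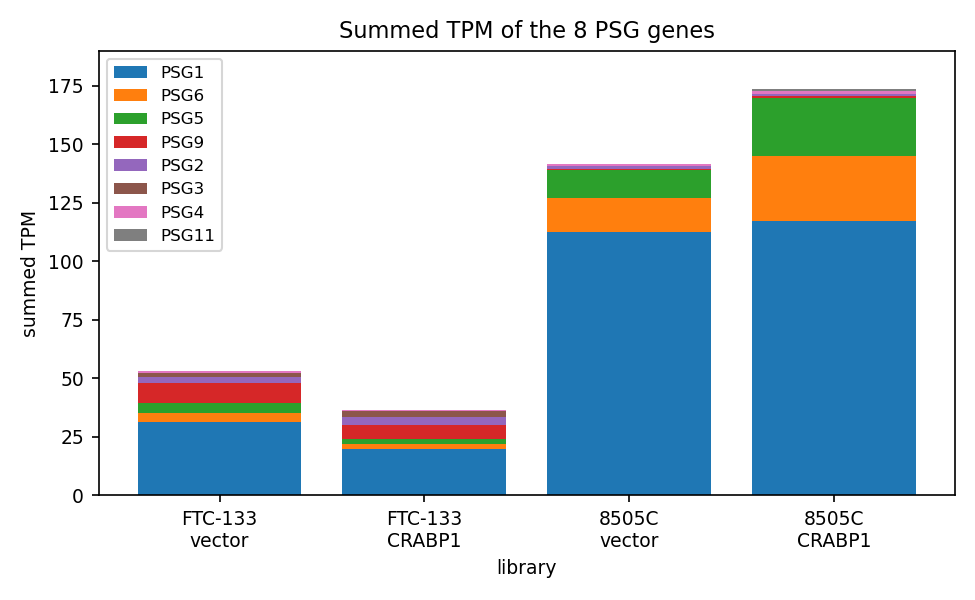
Summed TPM (y axis) of the 8 PSG genes in each library, with 1 coloured segment per gene. The sums are 53.2 and 36.5 TPM in FTC-133 and 142 and 173 TPM in 8505C, and PSG5 and PSG6 hold 83.5% of the difference between the 8505C sums.

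The CGB members were read almost only in FTC-133. CGB5 was at 11.7 TPM in FTC-133 with vector from 56 reads, at 0 in FTC-133 with CRABP1, at 0.224 TPM in 8505C with vector from 1 read and at 0 in 8505C with CRABP1. FTC-133 with vector was thus the 1 library above the floor of 3 reads, which corresponds to 0.648 TPM for this gene in FTC-133 with CRABP1. Against that floor, CGB5 was at least 18.1-fold lower with CRABP1. CGB8 was at 2.71 and 0.859 TPM in FTC-133, from 13 and 4 reads, and at 0 in both 8505C libraries, which allows up to 0.671 TPM. Its level in FTC-133 was 3.15-fold lower with CRABP1, with an interval of 0.973 to 13.3 that holds equal levels.

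The sum of CGB5 and CGB8 depends less on how shared reads were divided, and was 14.4 TPM from 69 reads in FTC-133 with vector and 0.859 TPM from 4 reads with CRABP1, 16.8-fold lower (17.2-fold on reads scaled to depth, 6.43 to 65.0). In FTC-133 with CRABP1, the other hCG beta genes CGB1, CGB2 and CGB3 had 0, 0 and 1 reads, and with vector 0, 1 and 0. Of their 50-base stretches, 86.3%, 59.7% and 79.6% also occurred in another annotated gene, so these counts are uncertain too. The related luteinizing hormone beta gene LHB had 5 and 4 reads with vector and CRABP1. CGB7 was at 0.976 and 1.62 TPM in FTC-133, from 18 and 29 reads, a ratio of 1.66 (0.892 to 3.18). It shares 1471 and 1243 exon bases with the annotated genes AC008687.7 and AC008687.8 on the same strand, both at 0 in all 4 libraries. The summed level of all 7 genes of this family, LHB included, was 17.1 and 3.90 TPM in FTC-133, 4.38-fold lower with CRABP1, and 0.768 and 0.543 TPM in 8505C.

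**Figure D4:**
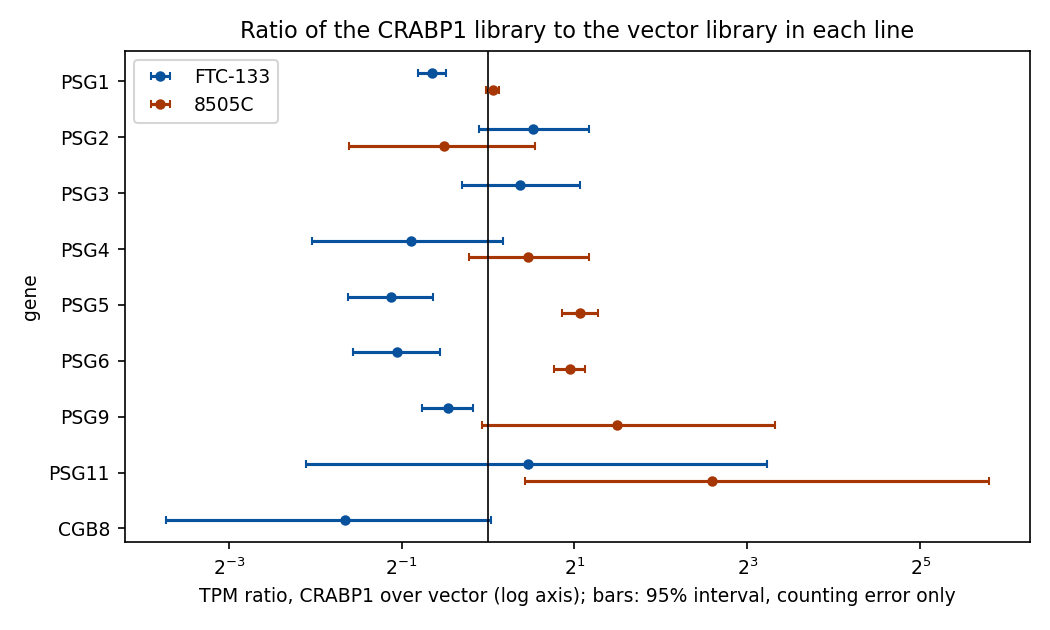
TPM ratio of the CRABP1 library to the vector library (x axis, log scale) for each gene in each line, with 95% intervals for counting error; CGB5, at 0 in FTC-133 with CRABP1, and pairs of libraries with 3 reads or fewer each are not drawn. The intervals of PSG5 and PSG6 lie below 1 in FTC-133 and above 1 in 8505C, and those of PSG1 and PSG9 lie below 1 in FTC-133 alone.

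By a rule of at least 2-fold on log2(TPM + 1), which understates ratios of low genes, 8 of the 10 members averaged 1 TPM or more in FTC-133. Of these, 1 was lower with CRABP1 (CGB5) and 0 were higher, where 4.92% and 6.02% of 19899 genes were lower and higher (10.9% either way). CGB8 at a log2 ratio of -0.995, PSG5 at -0.85 and PSG6 at -0.77 were short of it. With a pseudocount of 0.1 in place of 1 the count was 4, where 15.9% of all genes were past 2-fold, and after scaling to the median ratio of genes it was 2, where 10.5% were. The median log2 ratio was -0.69 over the 8 members and 0.06 over all genes.

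In 8505C 5 members reached a mean of 1 TPM, and PSG5, at 1.005, was the 1 past 2-fold, where 3.7% of 17561 genes were higher and 4.07% lower (7.77% either way). After median-ratio scaling PSG5 was no longer past it and the count was 0, where 8.24% of all genes were. PSG6 was at 0.90, PSG4 at 0.25, PSG1 at 0.06 and PSG2 at -0.27, with a median of 0.25 against 0.02 over all genes.

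Between the lines, 6 of the 7 members that averaged 1 TPM or more over the vector libraries were past 2-fold. PSG1, PSG5 and PSG6 were higher in 8505C, at log2 ratios of 1.82, 1.21 and 1.66, and PSG9, CGB5 and CGB8 lower, at -2.98, -3.38 and -1.89. Of all 19470 genes, 12.1% were higher and 21.6% lower (33.7% either way). In the CRABP1 libraries 6 of 6 were past it, with PSG1 at 2.50, PSG5 at 3.06 and PSG6 at 3.33 higher in 8505C and PSG2 at -1.20, PSG3 at -1.71 and PSG9 at -2.19 lower, against 11.3% and 23% of 19603 genes (34.3% either way). The comparisons share libraries, so their counts are not separate observations.

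In and beside the PSG cluster, 28 annotated genes were in the table, of which 20 were not members. In the vector libraries 12 of these 20 averaged 1 TPM or more, and 9 were higher by 2-fold in 8505C and 2 lower, the pseudogenes CEACAMP5 and RPS10P28. Of all genes, 12.1% were higher and 21.6% lower. Some of these calls rest on few reads in FTC-133 and 8505C, CEACAMP7 on 1 and 6, CEACAMP4 on 0 and 5 and RPS10P28 on 6 and 0. In 8505C 10 of the 20 reached that mean. CEACAMP11 was past 2-fold higher with CRABP1 and 0 were past it downward, where 3.7% and 4.07% of all genes were. Of the 10, 5 had log2 ratios above 0 and 5 below, down to -0.91 for CEACAMP7 on 6 and 2 reads. In FTC-133 3 of 9 were higher with CRABP1 (PSG8-AS1, AC005392.1 and CEACAMP10) and 0 lower, where 6.02% and 4.92% of all genes were. Of these, AC005392.1 rests on 1 and 7 reads. CEACAMP11, a CEACAM pseudogene beside PSG9, was at 0.945 and 1.95 TPM in FTC-133 and 19.2 and 40.9 TPM in 8505C, where the ratio was 2.13 (1.54 to 2.97) from 57 and 121 reads. PSG10P, a transcribed pseudogene, was at 2.92 and 5.42 TPM in 8505C, a ratio of 1.86 (1.14 to 3.09), and at 0.303 and 1.35 TPM in FTC-133. The noncoding gene AC005392.1 (ENSG00000227606), between PSG2 and PSG5, was at 0.367 and 2.65 TPM in FTC-133 and 33.8 and 48.9 TPM in 8505C. The neighbouring genes were named after their values were seen. PSG7 had 9, 5, 1 and 9 reads and PSG8 3, 6, 1 and 2 reads in FTC-133 with vector, FTC-133 with CRABP1, 8505C with vector and 8505C with CRABP1. Genes near 0 in 8505C thus lay both among the genes higher there and beside them. PSG9 lies between PSG5 and CEACAMP11, whereas PSG3 and PSG8 come before PSG1 in chromosomal order. PSG8 was near 0 in FTC-133 as well.

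**Figure D5:**
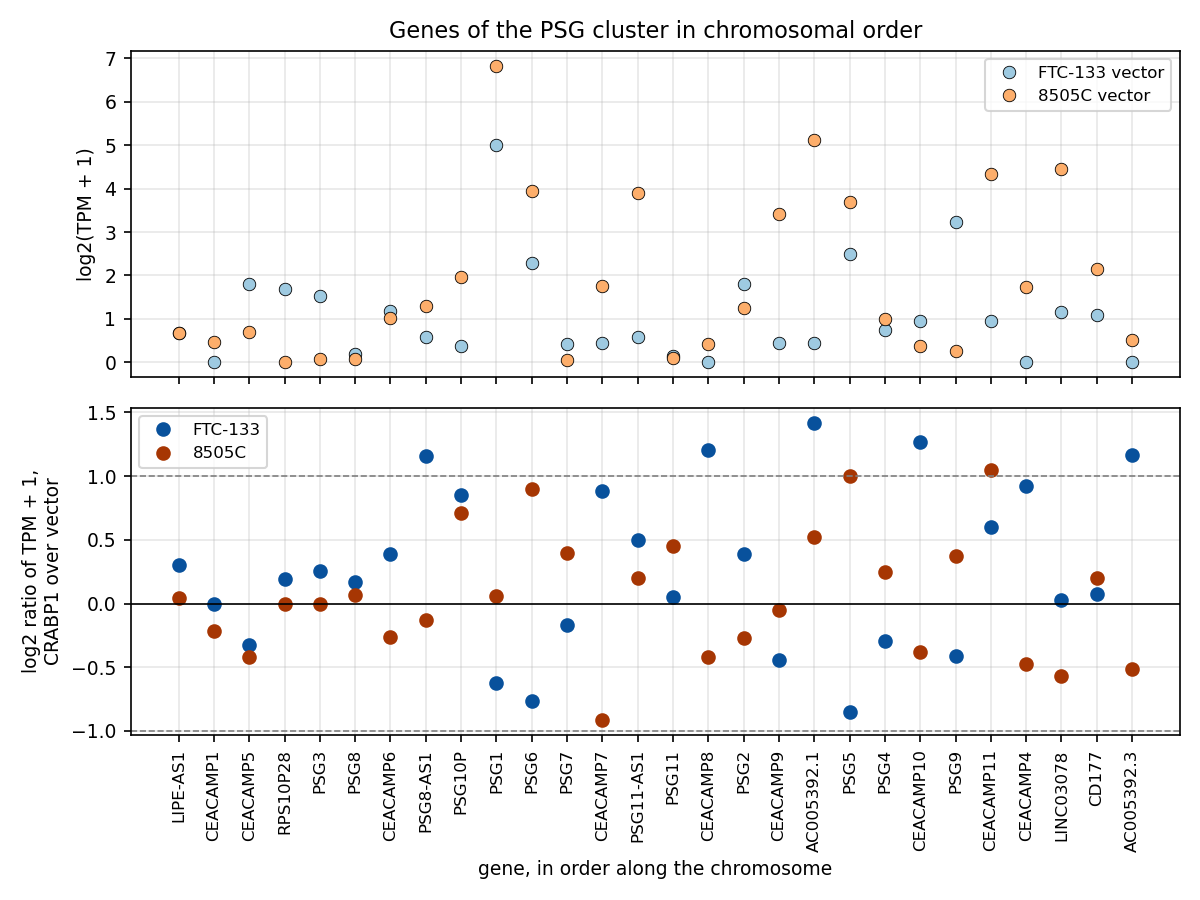
Genes of the PSG cluster in order along the chromosome (x axis), with log2(TPM + 1) in both vector libraries above and the log2 ratio of TPM + 1 with CRABP1 over vector in each line below; dashed lines mark 2-fold. In 8505C PSG5 and CEACAMP11 reach 1.005 and 1.05, while PSG1 stays at 0.06.

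Partners of the proteins were read at very different levels. CGA, the alpha subunit that hCG needs, was at 1.53 and 1.41 TPM in FTC-133 and at 7.32 and 4.06 TPM in 8505C. It was thus higher in the line in which CGB5 and CGB8 were near 0, and 1.80-fold lower there with CRABP1 (1.25 to 2.63). TSHR was at 0.945 and 0.956 TPM in FTC-133 and at 0 in both 8505C libraries, and LHCGR was at 0 in all 4. Of the other 5 hormone subunit and receptor genes, TSHB had 1 read in FTC-133 with vector and FSHB, GPHA2, GPHB5 and FSHR were at 0 throughout.

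All 13 listed PSG partners, which are integrins, tetraspanins, proteoglycans and TGF-beta ligands, reached a mean of 1 TPM in both lines. ITGB1, the integrin beta 1 chain, was at 607 to 1118 TPM, the syndecan SDC4 at 208 to 673 TPM, the integrin chain ITGA5 at 89.6 to 367 TPM and the tetraspanin CD151 at 94.9 to 208 TPM. In FTC-133 1 of the 13 was lower with CRABP1 by 2-fold, the syndecan SDC2 at 8.41 and 1.95 TPM, and 0 were higher. Of all genes, 4.92% were lower and 6.02% higher. In 8505C 0 were past 2-fold, where 7.77% of all genes were.

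Relatives of the PSGs and other placental genes were mostly low. Of 12 CEACAM genes, 2 averaged at least 1 TPM in each line, CEACAM1 (3.91 to 9.76 TPM) and CEACAM19 (0.918 to 5.29 TPM), and none of the 12 was past 2-fold within a line; CEACAM6 had at most 4 reads and CEACAM20 at most 2. Of 29 syncytiotrophoblast genes, 11 reached 1 TPM in FTC-133 and 9 in 8505C. In FTC-133 the protease inhibitor TFPI2 was higher with CRABP1, at 280 and 1424 TPM, and the X-linked XAGE2 lower, at 18.5 and 7.56 TPM. Of all genes, 6.02% were higher and 4.92% lower by 2-fold there. In 8505C 0 of 9 were past 2-fold (7.77% of all genes), with TFPI2 at 284 and 221 TPM and XAGE2 at 9.41 and 15.1 TPM. The others among the 4 highest were the proteoglycan SDC1 (38.4 to 166 TPM), ADAM12 (4.72 to 46.2 TPM) and the peptide gene KISS1, at 85.6 and 56.1 TPM in 8505C and at most 0.265 TPM in FTC-133.

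Of 25 trophoblast regulators, 12 reached 1 TPM in FTC-133, where VGLL3 (1.28 and 4.46 TPM) and TBX3 (4.25 and 10.9 TPM) were higher with CRABP1, and 16 did in 8505C, where 0 were past 2-fold. Of all genes, 6.02% were higher in FTC-133, and 7.77% were past 2-fold either way in 8505C. KLF5 was at 10.9 to 16.7 TPM in FTC-133 and 211 and 221 TPM in 8505C, KLF6 at 105 to 124 TPM and SP1 at 65.5 to 88.8 TPM. In the vector libraries 8 of 15 regulators were higher by 2-fold in 8505C and 3 lower, where 12.1% and 21.6% of all genes were. In the CRABP1 libraries 5 of 15 were higher and 4 lower, where 11.3% and 23% of all genes were. Of 11 syncytiotrophoblast genes that reached 1 TPM, 2 were higher in 8505C and 4 lower in the vector libraries. In the CRABP1 libraries 2 of 11 were higher and 6 lower.

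Of the defining syncytiotrophoblast markers, 7 of 8 were below 1 TPM in all libraries. The 8 summed to 2.83 and 2.90 TPM in FTC-133 and 8.45 and 4.53 TPM in 8505C, and CGA, at up to 7.32 TPM, was the 1 that reached 1 TPM. The placental lactogen CSH1 and the steroid enzyme HSD3B1 were at 0 throughout, and GCM1, the regulator of trophoblast fusion, was at most 0.396 TPM. The other trophoblast lists had higher sums in 8505C, but not every marker on them was higher there. The 6 cytotrophoblast markers summed to 13.7 and 15.9 TPM in FTC-133 and 68.5 and 64.1 TPM in 8505C. In 8505C 3 of the 6 reached 1 TPM, TEAD4 at 27.4 and 24.9 TPM, TFAP2C at 29.1 and 31.9 TPM and GATA3 at 11.2 and 6.85 TPM. Below it there were TP63, at 0.736 and 0.554 TPM, and ELF5, at 0 in both 8505C libraries. The 4 extravillous trophoblast markers summed to 3.66 and 9.68 TPM in FTC-133 and 83.3 and 72.4 TPM in 8505C, mostly the integrin chain ITGA1, which was at 3.01 and 7.94 TPM in FTC-133, past 2-fold higher with CRABP1. PAPPA2 went the other way, at 0.656 and 1.73 TPM in FTC-133 and at 0 and 0.018 TPM in 8505C. ASCL2 was at 0 throughout and HLA-G was at most 0.112 TPM.

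The 6 epithelial markers summed to 343 and 379 TPM in FTC-133 and 2208 and 1833 TPM in 8505C. Of these, the keratins KRT7, KRT8 and KRT18 were higher in 8505C, whereas the adhesion gene EPCAM (FTC-133 6.13 and 5.87 TPM, 8505C 0.546 and 0.235 TPM) and KRT19 were lower, and CDH1 was at most 0.241 TPM. The leukocyte markers summed to at most 0.689 TPM in FTC-133 and to 56.8 and 28.9 TPM in 8505C, of which CD14 made up 56.5 and 28.6 TPM, with PTPRC at most 0.194 TPM and LYZ at 0. The fibroblast markers summed to 599 and 385 TPM in FTC-133 and 56.9 and 78.4 TPM in 8505C. Among them the collagen gene COL1A1 was past 2-fold lower with CRABP1 in FTC-133, at 388 and 175 TPM, and the proteoglycan LUM past 2-fold higher in 8505C, at 1.99 and 6.42 TPM. The endothelial markers summed to 4.67 and 5.24 TPM in FTC-133 and 108 and 101 TPM in 8505C. Of the 3 of these 5 that averaged 1 TPM or more over the vector libraries, 2 were higher in 8505C, 1 of them past 2-fold, and 1 was lower. The part of these marker levels in the PSG and CGB values was not tested.

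The mean profile of the 6 PSG members with at least 1 TPM was nearest to that of ZNF594, CMTM6, EEIG2, TRPC1, NIN, KLHDC3, EPB41L2 and HPRT1 among 12915 protein-coding genes. Likeness was the Euclidean distance of log2(TPM + 1) centred over the 4 libraries, which was 0.04 to 0.10 for these 8. The mean centred PSG values were 0.02, -0.31, -0.03 and 0.32 in FTC-133 with vector, FTC-133 with CRABP1, 8505C with vector and 8505C with CRABP1. This mean hides opposite line differences, since PSG1, PSG5 and PSG6 were higher in 8505C and PSG2, PSG3 and PSG9 lower. In FTC-133, PSG2 and PSG3 had log2 ratios of 0.39 and 0.26 with CRABP1, on intervals that held equal levels, while the mean was lower. The genes named here are thus near the mean and need not be like any 1 member.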

How the data were processed

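The authors deposited 1 table of TPM values for 58884 Ensembl genes in 4 libraries, in which each column summed to 1000000. The tools were featureCounts 2.0.0, Trimmomatic 0.38 and FastQC with the build GRCh38, per the submitters' processing notes. The aligner, annotation, strand setting and read length were not given in the sources used here. Columns were assigned by sample title.

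For the 58611 genes found in GENCODE 29, TPM was multiplied by the merged exon length and divided by the step of 1 read per library. Within 0.02 of a whole read lay 90.5% to 91.6% of values up to 50 reads. For PSG2, PSG3, PSG11 and CGB5 the length was changed by less than 5% so that all 4 values were whole. These reads gave 95% Clopper-Pearson intervals and floors of 3 reads; no count test was run. Ratios for the 2-fold rule used log2(TPM + 1) over genes averaging 1 TPM or more. Read recovery and the 2-fold rule were tested on simulated data. With 1 library per group there were no p-values.

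The members and gene lists were chosen with earlier results of these data known. Every member and family gene is named, and of the other lists, cell type markers apart, the 4 genes with the highest mean and those past 2-fold within a line; EBI3 met that rule only below the 1 TPM filter and is left out. Alternatives were another pseudocount, no filter or a mean of 5 TPM, a 1.5-fold threshold, median-ratio scaling, removal of mitochondrially encoded genes, sums over whole families, and sums of reads. Symbols came from a gene name table. Python 3.11.15, pandas 2.3.3, NumPy 2.4.6, SciPy 1.17.1 and Biopython 1.88 were used.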

Additional observations from a re-analysis of the deposited data

Results flagged for a closer look

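PSG5 and PSG6 are given here because the single pair of libraries in FTC-133 and the single pair in 8505C differed in opposite directions, each with a counting interval that leaves out 1. The TPM ratio of CRABP1 to vector for PSG5 was 0.459 in FTC-133 and 2.09 in 8505C. For PSG6 the ratio was 0.483 in FTC-133 and 1.92 in 8505C. The difference between the lines was not tested, since each group held 1 library. The share of all genes with such opposite intervals was not counted, and the trait is not particular to PSG5 and PSG6. CMTM6, picked for its likeness to the mean PSG profile, had ratios of 0.778 (0.737 to 0.820) in FTC-133 and 1.21 (1.15 to 1.27) in 8505C. SDC4 went the reverse way, at 1.39 (1.33 to 1.46) in FTC-133 and 0.723 (0.700 to 0.747) in 8505C.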

How the results depend on the processing

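In FTC-133 the number of members past 2-fold was 4 with a pseudocount of 0.1 and 5 at a 1.5-fold threshold, and 2 with median-ratio scaling or without mitochondrially encoded genes, against 1; the shares of all genes were 15.9%, 22.7%, 10.5% and 13.8%, against 10.9%. In 8505C the number was 2 at the 1.5-fold threshold and 0 with median-ratio scaling, against 1, with 15.02% and 8.24% of all genes against 7.77%. Between the CRABP1 libraries it was 3 of 3 at a mean of at least 5 TPM, against 6, with 26.4% of all genes against 34.3%. At that mean the shares of all genes within a line were 4.70% in FTC-133 and 1.91% in 8505C. The PSG sum of 8505C over FTC-133 in the vector libraries was 2.94 with median-ratio scaling, which moved the median log2 ratio of all genes from -0.17 to -0.03. The CGB sum ratio in FTC-133 was 0.228 over all 7 family genes, against 0.0595. The wider sum adds CGB7, at 0.976 and 1.62 TPM with vector and CRABP1, and LHB, at 1.46 and 1.20 TPM. A wider sum adds genes, a stricter filter drops members, and a lower pseudocount or threshold passes smaller ratios. Beyond that, the cause of these shifts was not tested. Of 19 member log2 ratios within a line, the 16 with a two-sided counting interval shifted by less than that error under a pseudocount of 0.1, median-ratio scaling and removal of mitochondrially encoded genes. The other 3 have no such interval: CGB5 in FTC-133, at -6.89, -3.62 and -4.12 under these settings against -3.67, CGB5 in 8505C, and PSG3 in 8505C, which rests on 1 read in each library and alone changed sign. The CGB sum ratio in 8505C, from 1 and 0 reads, was not carried through the alternatives. No paired analysis was possible because each group held 1 library and the labels give no replicate numbers. Members with fewer than about 20 reads, such as PSG11 and CGB8, are limited by depth. Their counting intervals are wide, so a large shift can lie within them. With a pseudocount of 0.1, the 8505C log2 ratio of PSG11 moved from 0.450 to 1.68. That of PSG9, on 5 and 14 reads, moved from 0.373 to 1.13. Both genes averaged below 1 TPM in 8505C.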
